A study of Mus musculus with 9 samples.

Results

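The 8 genes described here encode dual-specificity MAP kinase phosphatases: Dusp1, Dusp2, Dusp4, Dusp5, Dusp6, Dusp7, Dusp10 and Dusp16. They were chosen by gene name, and each name matched 1 of the 26770 gene rows of the count table. Transcripts were measured by RNA sequencing in wild-type mouse monocytes derived from spleen, in 9 libraries that fall into 3 groups of 3. The first group was primed with lipopolysaccharide (LPS, the bacterial cell wall component that Toll-like receptor 4 senses) and then received octanal, an aldehyde that activates the olfactory receptor Olfr2, at 20 µM. The second group received LPS at 40 ng/ml for 5 hours, and the third was left untreated apart from the solvent DMSO. The series text gives 18 hours of octanal and DMSO at 1 in 1000, whereas the sample labels count up within the group, to 18, 19 and 20 hours and to dilutions of 1 in 1000, 1001 and 1002. All libraries of a group were taken as replicates. Neither the LPS dose nor its duration stands in the labels of the octanal libraries. Octanal and any difference in LPS exposure, culture time or solvent therefore cannot be told apart in comparisons with that group. No allele other than wild type, no age and no statement that the replicates came from separate animals or cultures was found in the labels; the p-values therefore cover the variation among these libraries, which may be technical.

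Dual-specificity phosphatases switch off MAP kinases by removing phosphate from both the threonine and the tyrosine of the activation loop. Toll-like receptor 4 turns on the MAP kinases ERK, JNK and p38 in monocytes and macrophages, and several of the phosphatase genes are themselves induced by MAP kinase signalling, which makes them feedback brakes on cytokine production. They differ in place and target. Dusp1, Dusp2, Dusp4 and Dusp5 act in the nucleus and are inducible, Dusp6 and Dusp7 hold back ERK in the cytoplasm, and Dusp10 and Dusp16 act mainly on JNK and p38. Transcript levels do not report on the activity of the enzymes or of the kinases.

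Promoter sequence was taken to show which of the DNA motifs read by signal-driven transcription factors lie next to each gene. It is printed for Dusp1, Dusp2, Dusp5, Dusp10 and Dusp16, a choice that does not follow the results below. RefSeq promoter windows (build GRCm38.p6, 250 bases before to 50 bases after the transcription start) were matched by symbol for 7 of the 8 members, all except Dusp4. The sequences below run 5′ to 3′ on the strand of the gene and cover bases -200 to -51 relative to that start. They lie at chr17:26508523-26508672 on the minus strand for Dusp1, chr2:127335959-127336108 on the plus strand for Dusp2, chr19:53528945-53529094 on the plus strand for Dusp5, chr1:184034181-184034330 on the plus strand for Dusp10 and chr6:134792679-134792828 on the minus strand for Dusp16. Capitals mark matches to the cAMP response element (CRE, TGACGTCA), to its core (TGACG, or CGTCA where it lies on the other strand), to the E-box (CACGTG) and to the CArG box of serum response factor.
Dusp1: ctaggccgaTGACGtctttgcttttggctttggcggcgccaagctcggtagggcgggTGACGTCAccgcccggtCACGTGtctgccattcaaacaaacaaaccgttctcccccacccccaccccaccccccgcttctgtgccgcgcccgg
Dusp2: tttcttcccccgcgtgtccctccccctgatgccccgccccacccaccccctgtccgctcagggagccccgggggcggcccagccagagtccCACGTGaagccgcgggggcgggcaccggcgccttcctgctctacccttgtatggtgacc
Dusp5: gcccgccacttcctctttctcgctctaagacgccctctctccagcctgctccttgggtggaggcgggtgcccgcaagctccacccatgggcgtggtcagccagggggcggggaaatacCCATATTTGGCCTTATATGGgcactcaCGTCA
Dusp10: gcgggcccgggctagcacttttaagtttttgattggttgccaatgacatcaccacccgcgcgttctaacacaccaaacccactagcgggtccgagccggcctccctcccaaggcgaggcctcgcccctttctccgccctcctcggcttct
Dusp16: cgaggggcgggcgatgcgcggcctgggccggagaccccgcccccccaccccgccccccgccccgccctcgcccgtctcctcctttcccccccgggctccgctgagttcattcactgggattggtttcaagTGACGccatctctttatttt
Dusp1 holds the full palindromic CRE at bases -143 to -136, with an E-box at bases -126 to -121 and a further CRE core at bases -191 to -187. Dusp2 has an E-box at bases -109 to -104. Dusp5 has 2 adjoining CArG boxes, at bases -82 to -73 and -72 to -63, with a CRE core at bases -55 to -51. Dusp16 has a CRE core at bases -70 to -66, and none of the capitalised motifs was found in the window of Dusp10.

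The motifs were counted on both strands of all 32851 RefSeq windows of the same length. The full CRE was present in 1 of the 7 member windows and in 1.79% of all windows, and the CArG box, searched by its consensus, in 1 of 7 and in 1.63% of all windows. The CRE core, which also lies inside every full CRE, was present in 4 of 7 (Dusp1, Dusp2, Dusp5 and Dusp16), against 20.8% of all windows. The E-box was present in 2 of 7, against 7.15%, and the GC box (GGGCGG) in 6 of 7, against 35.7%. The AP-1 site (TGANTCA) and the NF-kappaB site, searched by its consensus, were found in 0 of 7 member windows, against 7.81% and 8.46% of all windows. A match describes only the letters in these windows. In the 250 bases before the start, G and C made up 56.4% (Dusp6) to 77.2% (Dusp7) of the member windows. The shares of all windows were not matched for this base composition, and its part in the motif counts was not tested. The RefSeq start of Dusp16 was not found within its GENCODE M21 transcripts, so its window rests on RefSeq alone.

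**Figure D1:**
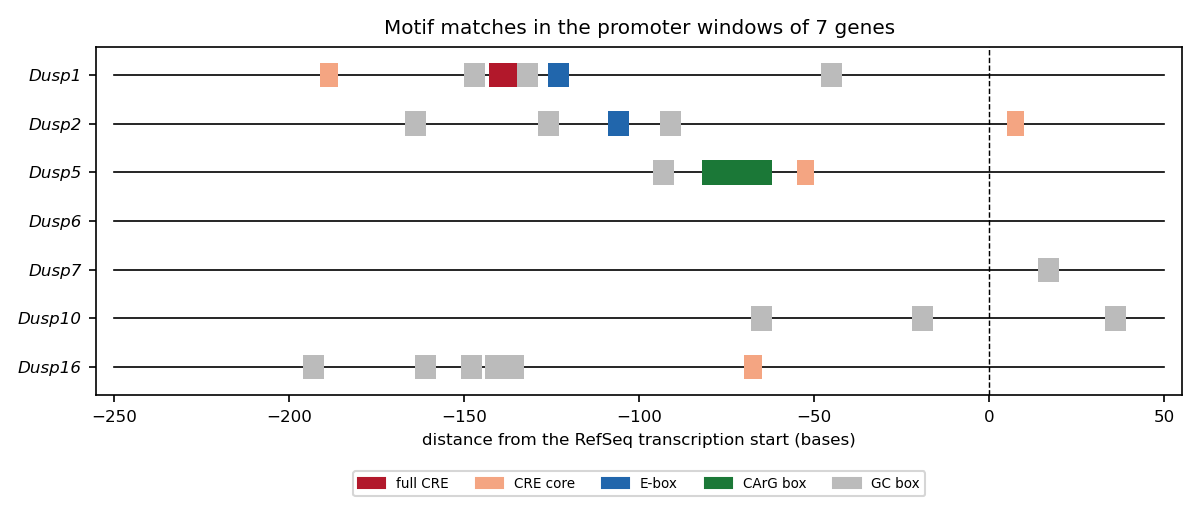
Motif matches in the RefSeq promoter windows of the 7 matched genes, with distance from the transcription start in bases on the horizontal axis and 1 line per gene. Dusp1 carries the full CRE, Dusp5 carries the 2 CArG boxes, and the windows of Dusp6, Dusp7 and Dusp10 hold neither a CRE core nor an E-box.

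The libraries held 29594291 to 38388421 counts, and the members had 156 to 6798 counts per library, so all 8 passed the filter on low counts among 15447 genes tested. Levels within a gene are given below as CPM (read counts relative to the library total) on totals scaled by the trimmed mean of M-values. All 9 classical monocyte markers were detected. Their summed levels were 4646 to 7152 CPM in LPS with octanal, 2338 to 3396 CPM in LPS and 5834 to 13650 CPM in untreated libraries. The highest was Lyz2, at means of 3395, 1433 and 6609 CPM in the same order of groups. Some markers were low in the treated libraries. Ly6c2 averaged 0.875, 2.95 and 139.8 CPM in that order, and Fcgr1 averaged 1.09, 1.40 and 1.24 CPM. Ccr2 averaged 1.48 CPM in LPS and 14.6 CPM in untreated libraries. Its log2 fold change between LPS with octanal and LPS was 0.03. Of the 9 markers, 6 fell and 1 rose in LPS against untreated cells. Markers of other leukocytes were present too, with 13 of 13 neutrophil markers at a summed 4889 to 11801 CPM in LPS with octanal, 1494 to 1967 CPM in LPS and 13291 to 25879 CPM in untreated libraries, and 12 of these 13 fell in LPS against untreated cells. Mitochondrial genes took 2.31 to 3.10% of counts in LPS with octanal, 4.12 to 7.66% in LPS and 2.20 to 3.99% in untreated libraries, so the LPS libraries stood above all others. The part that these differences have in the members' values was not tested. In bulk samples like these fewer cells of a type and less RNA per cell cannot be told apart.

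Levels can be compared between genes only per transcript length, for which the deposited FPKM values were used. In all 3 groups the highest levels belonged to Dusp1, the nuclear phosphatase that limits p38 and JNK in macrophages, and Dusp5, a nuclear phosphatase specific for ERK. Dusp5 averaged 63.7 ± 10.1 FPKM in LPS with octanal, 66.3 ± 4.18 FPKM in LPS and 37.0 ± 14.7 FPKM in untreated libraries (SD, n = 3 each). Dusp1 averaged 46.0 ± 6.23 FPKM in LPS with octanal, 60.3 ± 7.91 FPKM in LPS and 48.1 ± 12.98 FPKM in untreated libraries. Dusp5 lay above Dusp1 without overlap in the octanal group, whereas the ranges of this pair overlapped in the LPS and untreated groups. Dusp2 came next by mean in every group, overlapping Dusp5 in the untreated group, at 19.7 ± 3.98 FPKM in LPS with octanal, 30.9 ± 3.23 FPKM in LPS and 16.6 ± 7.93 FPKM in untreated libraries.

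The order of the lower members changed with the group. Among the octanal libraries, Dusp16 at 10.9 ± 0.438 FPKM, Dusp10 at 8.95 ± 3.12 FPKM and Dusp4 at 8.31 ± 1.43 FPKM followed one another with overlapping neighbours. Dusp7 at 4.61 ± 1.27 FPKM and Dusp6 at 3.68 ± 0.737 FPKM were the lowest in that group, again with overlap. In LPS libraries Dusp10 followed Dusp2 at 15.3 ± 1.90 FPKM, with Dusp16 next at 9.09 ± 0.881 FPKM and Dusp7 at 5.93 ± 1.17 FPKM, with Dusp4 at 4.67 ± 0.167 FPKM and Dusp6 at 4.26 ± 0.509 FPKM overlapping at the bottom. In untreated libraries Dusp4 followed Dusp2 at 11.5 ± 1.30 FPKM, overlapping its range, and lay above Dusp16 at 6.26 ± 0.806 FPKM, while Dusp6, Dusp10 and Dusp7 lay at 4.67, 4.58 and 4.55 FPKM with overlapping ranges.

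Summed over the 8 genes, the level was 166 ± 23.2 FPKM in LPS with octanal, 197 ± 11.8 FPKM in LPS and 133 ± 30.2 FPKM in untreated libraries. The 4 inducible nuclear genes made up 83.0 ± 0.388% of it in LPS with octanal, 82.4 ± 0.663% in LPS and 84.9 ± 0.591% in untreated libraries. The pair that acts on JNK and p38, Dusp10 and Dusp16, made up 12.0 ± 0.244% in LPS with octanal, 12.4 ± 0.628% in LPS and 7.98 ± 1.06% in untreated libraries. The cytoplasmic ERK phosphatases Dusp6 and Dusp7 made up 5.02 ± 0.426% in LPS with octanal, 5.18 ± 0.184% in LPS and 7.16 ± 1.58% in untreated libraries. The share of Dusp10 with Dusp16 was higher in all 6 libraries that had received LPS than in any untreated library, and the share of Dusp4 alone was lower in those 6, at 4.99 ± 0.356% in LPS with octanal and 2.38 ± 0.196% in LPS, against 9.03 ± 2.88% in untreated libraries. Shares were not tested.

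**Figure D2:**
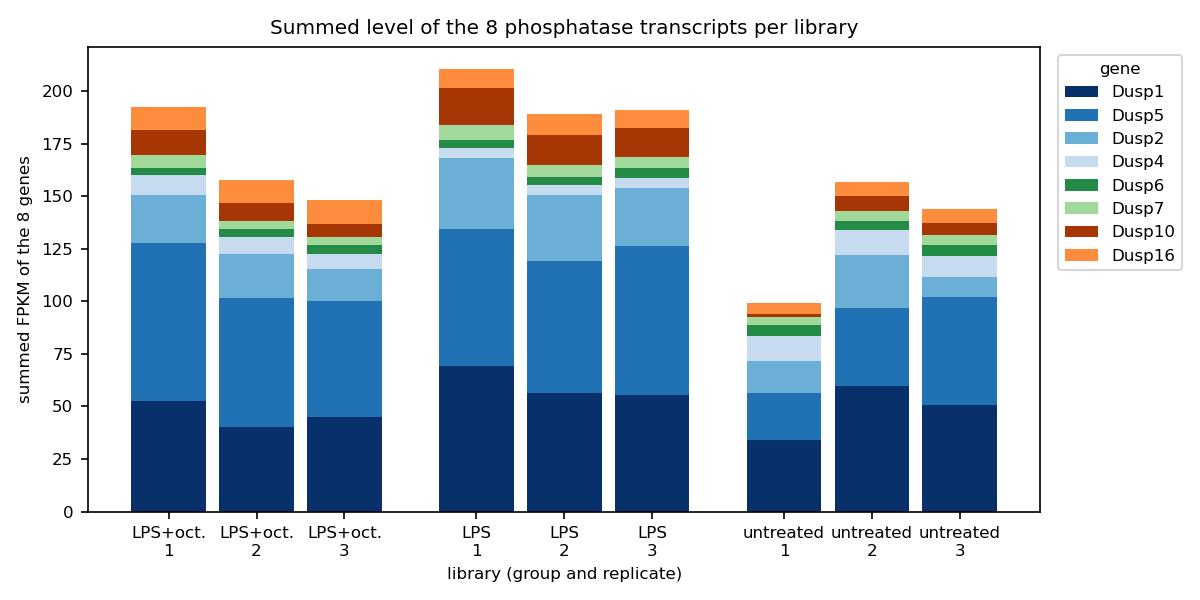
Deposited FPKM of the 8 genes stacked for each library, with groups and replicate numbers on the horizontal axis. Dusp1 and Dusp5 fill most of every bar, and the thin Dusp4 layer is narrowest in the 3 LPS libraries, where its share averages 2.38%.

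The first comparison set LPS against untreated cells. The labels give DMSO for the untreated group but not for the LPS group, and no culture time for untreated cells. LPS, solvent and any difference in culture time therefore cannot be told apart in it. Against untreated cells, 2 of the 8 members rose (Dusp10 and Dusp16) and 1 fell (Dusp4) by edgeR's quasi-likelihood test at an adjusted p under 0.05 over all genes. Across the 15447 genes, 15.2% were called higher and 17.6% were called lower, so the members' counts are read against a broad response. The libraries of the LPS and untreated groups did not overlap for 5 members (Dusp2, Dusp5, Dusp10 and Dusp16 higher and Dusp4 lower), against 51.5% of all genes. The median log2 fold change was 0.35 over the members and 0.01 over all genes. With FPKM values in place of scaled counts the median of all genes shifted by 0.11 and the share of higher genes among those called was 58.2%, against 46.4% in the count test.

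The second comparison set LPS followed by octanal against untreated cells and shares the untreated libraries with the first. Dusp16 rose and no member fell, against 2.63% of all genes called higher and 6.03% called lower. The libraries of the LPS with octanal and untreated groups did not overlap for 4 members (Dusp5, Dusp10 and Dusp16 higher and Dusp4 lower), against 29.8% of all genes, and the median log2 fold change was 0.12 over the members and -0.01 over all genes. The third comparison set LPS with octanal against LPS. Octanal and any difference in LPS exposure, culture time or solvent cannot be told apart in it. None of the 8 members and none of the 15447 genes was called in it (0.0% higher and 0.0% lower) by edgeR's quasi-likelihood test, whereas 3450 genes, 2 of them members, had an unadjusted p under 0.05, DESeq2 called 1792 genes, Dusp4 among them, and limma-voom called 0. The libraries of the LPS with octanal and LPS groups did not overlap for 5 members, with Dusp4 and Dusp16 higher and Dusp1, Dusp2 and Dusp10 lower, against 38.1% of all genes. The median log2 fold change was -0.20 over the members and -0.05 over all genes.

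**Figure D3:**
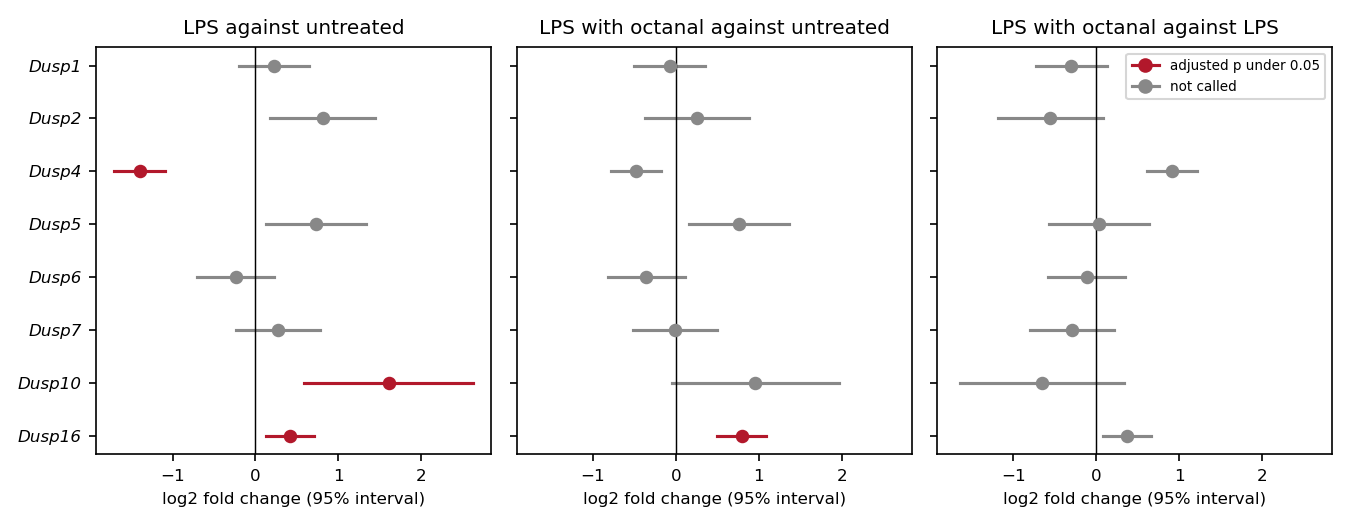
Log2 fold change of each member with its 95% interval in the 3 comparisons, from edgeR's quasi-likelihood fit; red marks an adjusted p under 0.05. Dusp4 lies furthest to the left under LPS against untreated (-1.40), Dusp10 furthest to the right (1.61), and Dusp16 is called in both comparisons with untreated cells.

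Dusp4, an inducible nuclear phosphatase for ERK, JNK and p38, was the member that fell. It had 28.1, 25.2 and 21.0 CPM in LPS with octanal, 12.6, 13.1 and 13.5 CPM in LPS and 36.9, 35.1 and 31.5 CPM in untreated libraries (replicates 1, 2 and 3). The 3 groups did not overlap, with LPS lowest, octanal between and untreated highest. Dusp4 was 2.64-fold lower in LPS than in untreated cells (log2 fold change -1.40, 95% interval -1.70 to -1.09, SE 0.135, adjusted p = 0.000631). Its log2 difference between LPS with octanal and untreated cells was -0.48 (SE 0.132, interval -0.78 to -0.18, adjusted p = 0.0569), which did not pass. That difference passed in 0 of the 9 fits that each left out a library. Of the 10 other alternatives it passed in 4, among them DESeq2 at 0.00609, and missed in the rest. Between LPS with octanal and LPS the log2 difference of Dusp4 was 0.92 (SE 0.134, interval 0.62 to 1.22), a level 1.89-fold higher in the octanal libraries. Its adjusted p of 0.0508 is the lowest value of that comparison and is shared by 47 genes. This difference passed in 3 of the 9 fits that each left out a library. The adjusted p was 0.0440 without LPS with octanal replicate 1, 0.0486 without untreated replicate 1 and 0.0294 without untreated replicate 2. In the other fits without a library it did not pass, with an adjusted p of up to 0.221. Of the 10 other alternatives it passed in 5, among them DESeq2 at 6.405e-09, and it missed in the rest, among them voom at 0.0573.

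The 3 genes whose log2 CPM followed Dusp4 most closely over the 9 libraries, among 8698 compared, were Gpnmb (r = 0.968), a glycoprotein of lipid-laden macrophages, Tnfsfm13 (r = 0.968), a read-through of a pair of TNF superfamily genes, and Dio2 (r = 0.967), the deiodinase that activates thyroid hormone. Gpnmb averaged 1824 CPM in LPS with octanal, 523 CPM in LPS and 4733 CPM in untreated libraries. Of the 10 macrophage markers, 7 fell in LPS against untreated cells, and 8 fell and 1 (Adgre1) rose in LPS with octanal against untreated cells. Between LPS with octanal and LPS, where the log2 difference of Dusp4 was 0.92, none of the 10 passed, 6 had a negative log2 fold change and the median was -0.33. Their summed level was 821 to 1005 CPM in LPS with octanal, 433 to 699 CPM in LPS and 1528 to 2567 CPM in untreated libraries, and no marker was at 0 in all libraries. Per 100 CPM of these markers, Dusp4 stood at 2.48 to 3.42 CPM in LPS with octanal, 1.94 to 2.92 CPM in LPS and 1.44 to 2.24 CPM in untreated libraries. The summed level of the neutrophil markers given above kept the same order of groups as Dusp4 without overlap. Their median log2 fold change was -4.65 over the 13 in LPS against untreated cells. In LPS with octanal against LPS the median was 1.90, all 13 were positive and 0 passed. Ly6g was the marker that did not pass in LPS against untreated cells (-0.80, adjusted p = 0.356). It had another order, averaging 52.2 CPM in LPS with octanal, 20.3 CPM in LPS and 35.2 CPM in untreated libraries. Relative to 100 CPM of the neutrophil markers, Dusp4 was highest in LPS, at 0.664 to 0.884 CPM. It stood at 0.178 to 0.515 CPM in LPS with octanal and 0.122 to 0.264 CPM in untreated libraries. Relative to 100 CPM of classical monocyte markers the groups overlapped. The values were 0.293 to 0.604 CPM in LPS with octanal, 0.385 to 0.540 CPM in LPS and 0.270 to 0.601 CPM in untreated libraries. The part that macrophages, neutrophils or monocytes have in the level of Dusp4 was not tested.

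Dusp1 is an immediate-early gene in macrophages and is also induced by glucocorticoids. It had 111, 87.7 and 100.1 CPM in LPS with octanal, 139.6, 116 and 112 CPM in LPS and 74.7, 124 and 116 CPM in untreated libraries. LPS libraries lay above all octanal libraries but overlapped the untreated ones, in which replicate 1 was low. The log2 fold change was 0.22 (SE 0.188, interval -0.20 to 0.65, adjusted p = 0.385) for LPS against untreated, -0.07 (SE 0.188, interval -0.50 to 0.35, adjusted p = 0.831) for LPS with octanal against untreated and -0.30 (SE 0.188, interval -0.72 to 0.13, adjusted p = 0.372) for LPS with octanal against LPS. The sign of the first rests on untreated replicate 1, without which it was -0.0027. The span of Dusp1 overlaps Ergic1 on the other strand, and whether reads were counted by strand is not stated.

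Dusp2, a nuclear phosphatase found mainly in haematopoietic cells, had 39.5, 36.8 and 27.8 CPM in LPS with octanal, 55.4, 52.3 and 45.2 CPM in LPS and 26.8, 42.6 and 17.9 CPM in untreated libraries. Every LPS library lay above every library of the other groups, while the octanal and untreated libraries overlapped. The log2 fold change of LPS against untreated was 0.81 (SE 0.280, interval 0.17 to 1.44) with an adjusted p of 0.0534. Of the 9 fits that each left out a library, it passed in 1 only, without untreated replicate 2 (1.16, adjusted p = 0.00483). That is the highest untreated library, whose removal raises the difference by itself. In the other fits the log2 fold change fell as low as 0.55, with an adjusted p of up to 0.1365. Of the 10 other alternatives it passed in 6, with DESeq2 lowest at an adjusted p of 0.0203. It missed in the rest, with edgeR on the 2 groups alone highest at 0.0801. The log2 fold change was 0.25 (SE 0.279, interval -0.38 to 0.89, adjusted p = 0.588) for LPS with octanal against untreated and -0.55 (SE 0.279, interval -1.19 to 0.08, adjusted p = 0.274) for LPS with octanal against LPS.

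Dusp5 had 196, 166 and 153 CPM in LPS with octanal, 162, 162 and 178 CPM in LPS and 60.8, 95.3 and 147 CPM in untreated libraries. All libraries that had received LPS lay above the untreated ones, and the untreated libraries differed among themselves by 2.42-fold. The log2 fold change was 0.73 (SE 0.266, interval 0.13 to 1.33, adjusted p = 0.0633) for LPS against untreated and 0.76 (SE 0.266, interval 0.16 to 1.36, adjusted p = 0.107) for LPS with octanal against untreated. Of the 9 fits that each left out a library, both passed the threshold in 1 only, without untreated replicate 3, the highest untreated library. Its removal raises both values by itself, to 1.09 (adjusted p = 0.00913) and 1.16 (adjusted p = 0.0153). In the other fits they fell as low as 0.43 and 0.48, with an adjusted p of up to 0.175 and 0.240. Of the 10 other alternatives, LPS against untreated passed in 4, DESeq2 (adjusted p = 0.0449) and voom (0.0433) among them. LPS with octanal against untreated passed in 1 of these 10, DESeq2 (adjusted p = 0.0499). Between LPS with octanal and LPS the difference was 0.03 (SE 0.264, interval -0.56 to 0.63, adjusted p = 0.948), with overlapping groups, and its sign changed on the FPKM scale.

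The cytoplasmic ERK phosphatases did not pass in any comparison. Dusp6, a feedback inhibitor whose own transcription follows ERK activity, had 8.98, 10.7 and 14.0 CPM in LPS with octanal, 11.5, 11.1 and 13.7 CPM in LPS and 15.6, 11.5 and 15.9 CPM in untreated libraries. All 3 groups overlapped, and the log2 fold change was -0.24 (SE 0.204, interval -0.70 to 0.22, adjusted p = 0.390) for LPS against untreated, -0.35 (SE 0.204, interval -0.82 to 0.11, adjusted p = 0.287) for LPS with octanal against untreated and -0.11 (SE 0.204, interval -0.58 to 0.35, adjusted p = 0.766) for LPS with octanal against LPS. Dusp7 had 20.4, 14.0 and 13.1 CPM in LPS with octanal, 23.2, 18.9 and 15.9 CPM in LPS and 12.9, 16.5 and 18.7 CPM in untreated libraries. Its groups overlapped as well, with log2 fold changes of 0.27 (SE 0.225, interval -0.24 to 0.78, adjusted p = 0.375) for LPS against untreated, -0.01 (SE 0.225, interval -0.52 to 0.50, adjusted p = 0.976) for LPS with octanal against untreated and -0.29 (SE 0.225, interval -0.79 to 0.22, adjusted p = 0.470) for LPS with octanal against LPS. Each of the 6 intervals spans 0, which does not show that the levels were alike.

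Dusp10 rose in LPS against untreated cells. It encodes a phosphatase of JNK and p38 with known roles in both innate cells and T cells. It had 31.8, 21.8 and 17.7 CPM in LPS with octanal, 42.6, 35.6 and 34.1 CPM in LPS and 4.20, 17.2 and 15.5 CPM in untreated libraries. The LPS libraries lay above all others, octanal replicate 3 stood just above untreated replicate 2, and untreated replicate 1 was 4.10-fold below the highest untreated library. Dusp10 was 3.05-fold higher in LPS than in untreated cells (log2 fold change 1.61, SE 0.451, interval 0.59 to 2.63, adjusted p = 0.0258). The call was lost without LPS replicate 1 (1.48, adjusted p = 0.0812), replicate 2 (1.61, 0.0563) or replicate 3 (1.64, 0.0580), and the log2 fold change was lowest, at 1.16, without untreated replicate 1. It was 0.96 (SE 0.445, interval -0.05 to 1.96, adjusted p = 0.201) for LPS with octanal against untreated and -0.65 (SE 0.440, interval -1.65 to 0.34, adjusted p = 0.401) for LPS with octanal against LPS.

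The level of Dusp10 ran with T cell transcripts in every library. The 3 genes closest to it over the 9 libraries were Cd3d (r = 0.998), a chain of the T cell receptor complex, Prkcq (r = 0.994), the protein kinase C of T cell receptor signalling, and Fam189b (r = 0.993). Cd3d had 63.0, 41.7 and 37.3 CPM in LPS with octanal, 89.3, 71.3 and 70.0 CPM in LPS and 8.98, 35.8 and 29.998 CPM in untreated libraries, the same order of libraries within each group as Dusp10. Of 10 T cell markers 9 were in the table, none at 0 in all libraries, and all 9 rose in LPS against untreated cells with a median log2 fold change of 1.77. In LPS with octanal against untreated cells 0 of 9 were called, though all 9 were positive, with a median of 1.12. Against LPS, where no gene was called, 0 of 9 were positive and the median was -0.69. Their summed level was 587 to 884 CPM in LPS with octanal, 986 to 1199 CPM in LPS and 118 to 556 CPM in untreated libraries. Per 100 CPM of these markers, Dusp10 stood at 3.02 to 3.60 CPM in LPS with octanal, 3.21 to 3.55 CPM in LPS and 3.09 to 3.91 CPM in untreated libraries. Expressed in that way, the 3 groups overlapped. NK cell markers were highest in LPS too, at a summed 40.5 to 47.0 CPM. They summed to 21.8 to 33.6 CPM in LPS with octanal and 5.83 to 23.5 CPM in untreated libraries. All 7 were positive in LPS against untreated cells, and 3 rose, namely Prf1 (2.19), Klrd1 (1.71) and Nkg7 (1.18). In LPS with octanal against LPS, 3 of the 7 were positive and the median was -0.21. The part that T cells or NK cells have in the rise of Dusp10 was not tested.

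**Figure D4:**
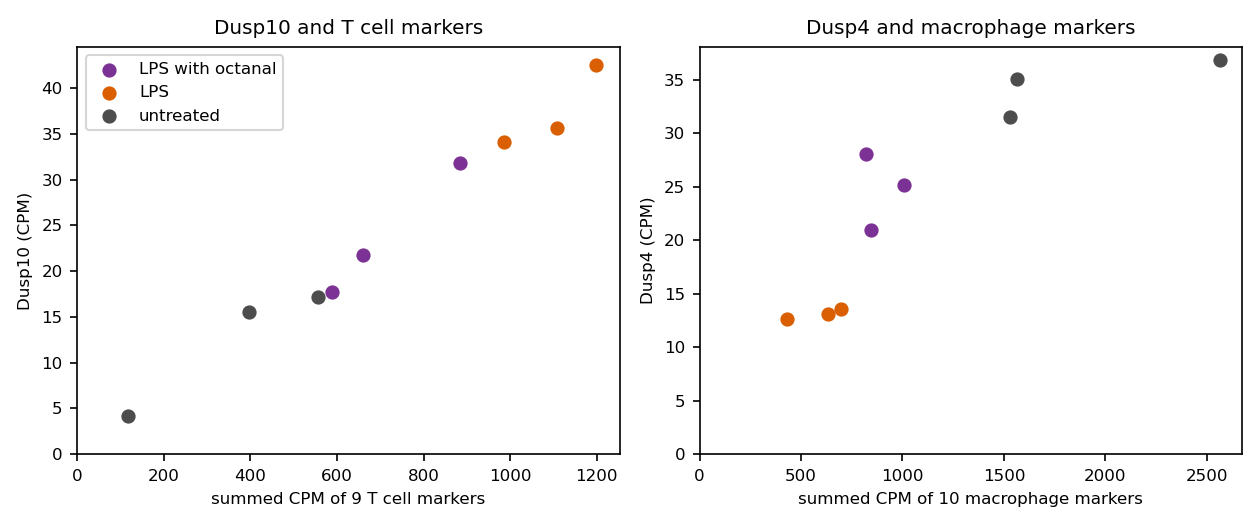
Dusp10 against the summed level of 9 T cell markers (left) and Dusp4 against the summed level of 10 macrophage markers (right), in CPM, with 1 point per library. Dusp10 keeps to 3.02 to 3.91 CPM per 100 CPM of T cell markers in all 9 libraries, while Dusp4 forms 3 separate groups.

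Dusp16, which dephosphorylates JNK and p38 and shuttles between nucleus and cytoplasm, rose in both comparisons with untreated cells. It had 55.7, 60.5 and 64.8 CPM in LPS with octanal, 45.7, 52.2 and 41.5 CPM in LPS and 29.99, 36.8 and 37.8 CPM in untreated libraries. The 3 groups did not overlap, with octanal highest and untreated lowest. Dusp16 was 1.73-fold higher in LPS with octanal than in untreated cells (log2 fold change 0.79, SE 0.128, interval 0.50 to 1.08, adjusted p = 0.0105). That call was lost only without LPS with octanal replicate 2 (0.78, adjusted p = 0.0547) among the 9 fits that left out a library. In LPS it was 1.34-fold higher than in untreated cells (0.42, SE 0.128, interval 0.13 to 0.71, adjusted p = 0.0356), a call that did not hold in any of the 9 fits without 1 library (log2 fold change 0.29 to 0.47, adjusted p 0.0515 to 0.172). The difference between LPS with octanal and LPS was 0.38 (SE 0.128, interval 0.09 to 0.66, adjusted p = 0.139). The closest genes were Fndc9 (r = 0.970), Sra1 (r = 0.969) and Tnip1 (r = 0.968), an inhibitor of NF-kappaB signalling that averaged 390 CPM in LPS with octanal, 269 CPM in LPS and 129 CPM in untreated libraries.

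**Figure D5:**
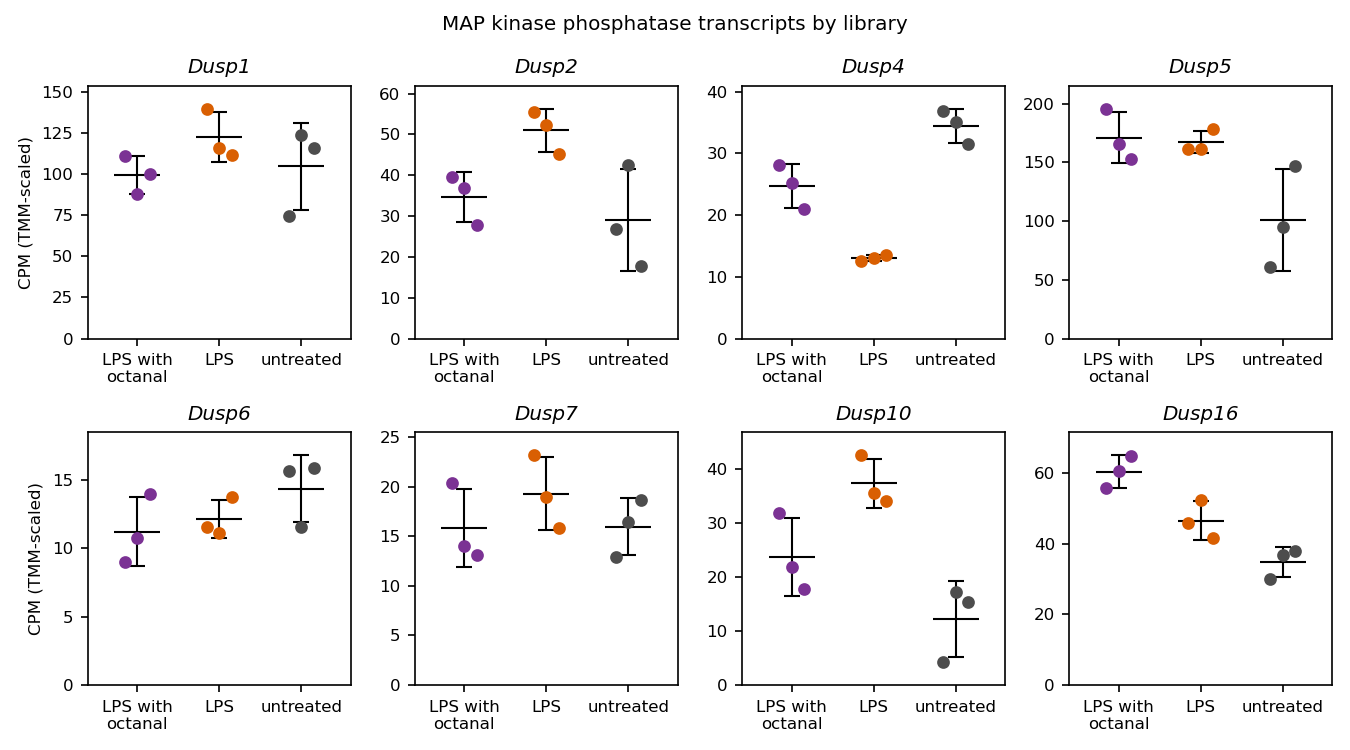
Level of each member in CPM for every library, with the mean and SD of each group as bars and the points in order of replicate number. The 3 groups separate fully for Dusp4 and Dusp16 and overlap throughout for Dusp6 and Dusp7.

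For the other 5 members, the genes with the most similar course were Acvr2a (r = 0.955), Dennd1b (0.944) and Ppp1r12c (0.943) for Dusp1, and Slc25a25 (0.988), Rcc2 (0.982) and Pitpnm2 (0.981) for Dusp2. They were Atxn2l (0.977), Dirc2 (0.971) and Mbtd1 (0.971) for Dusp5, Pmf1 (0.867), Lyz1 (0.853) and Evi2 (0.850) for Dusp6, and Hace1 (0.937), Kat2b (0.935) and Sox4 (0.934) for Dusp7. Dusp6 thus had the weakest best match. Among the 28 pairs of members, 12 had a negative r, and each of these involved Dusp4 or Dusp6, from -0.75 for Dusp4 with Dusp10 to -0.31 for Dusp1 with Dusp6. The closest pairs were Dusp5 with Dusp10 (r = 0.88) and Dusp1 with Dusp7 (r = 0.82). These correlations describe 9 libraries that share 3 treatments and differing cell mixtures, and carry no test.

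Other genes of the dual-specificity phosphatase family and other phosphatases of MAP kinases gave a mixed picture in LPS against untreated cells. Of the remaining typical members, Dusp9 fell (log2 fold change -2.75, adjusted p = 0.0126) at a mean of 0.429 CPM in LPS and 2.93 CPM in untreated cells, and Dusp8 did not pass (-0.89, adjusted p = 0.0772). Of 10 tested atypical genes of the family, not all of which act on MAP kinases, 3 fell and 3 rose. Dusp3, which acts on ERK and JNK, fell to 24.7 ± 4.79 CPM in LPS, against 113.8 ± 27.5 CPM in untreated cells (log2 fold change -2.20, adjusted p = 0.000617), with Dusp18 (-2.57) and Dusp22 (-1.05), while Styx (0.53), Dusp11 (0.36) and Dusp28 (0.85) rose. Against untreated cells, LPS with octanal gave a fall of Dusp9 (-3.81, adjusted p = 0.0145), Dusp3 (-1.43, adjusted p = 0.00512) and Dusp18 (-1.17) and a rise of Styx (0.39). Of 6 tested tyrosine and serine/threonine phosphatases of MAP kinases, Ptpn7, a leukocyte tyrosine phosphatase, fell in LPS against untreated cells (-1.61, adjusted p = 0.00246) and Ppm1b and Ppm1d rose (0.53 each), while none of the 6 passed in LPS with octanal against untreated cells.

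The substrates of the phosphatases moved in both directions. Of 10 MAP kinases, 4 fell and 2 rose in LPS against untreated cells. Mapk13 (p38 delta) fell to 1.77 ± 0.740 CPM in LPS, against 37.6 ± 9.86 CPM in untreated cells (log2 fold change -4.41, adjusted p = 0.000976), and Mapk3 (ERK1, -1.33), Mapk7 (ERK5, -0.82) and Mapk14 (p38 alpha, -0.35, adjusted p = 0.0499) fell less, while Mapk8 (JNK1, 0.71) and Mapk11 (p38 beta, 1.93) rose. In LPS with octanal against untreated cells, Mapk13 fell (-2.19, adjusted p = 0.0218) and Mapk8 rose (0.71, adjusted p = 0.0127). Of the 7 upstream MAP kinase kinases, Map2k7, which activates JNK, rose in LPS (0.62, adjusted p = 0.00190) and in LPS with octanal (0.53, adjusted p = 0.0105) against untreated cells, and Map2k3 and Map2k4 fell in LPS (-0.42 each). Of 14 kinases and adaptors one tier higher, Braf (-0.67) and Map3k5 (-0.54) fell in LPS, and none passed in LPS with octanal against untreated cells.

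Genes downstream of the kinases also moved in both directions. Of 10 kinases activated by MAP kinases, 4 fell in LPS against untreated cells, namely Rps6ka2 (-1.85), Rps6ka1 (-1.10), Mknk1 (-0.77) and Mapkapk3 (-0.70), and Rps6ka3 rose (0.26). Mapkapk2, the p38-activated kinase that stabilises cytokine mRNA, rose to 1042 ± 285 CPM in LPS with octanal, against 359 ± 51.1 CPM in untreated cells (log2 fold change 1.54, adjusted p = 0.0104), and averaged 475 ± 111 CPM in LPS, while Rps6ka1 fell (-0.66). Of 10 immediate-early transcription factors, 5 fell in LPS against untreated cells, namely Egr2 (-2.70), Egr3 (-2.55), Fos (-1.94), Atf3 (-1.06) and Jun (-0.82), and Junb rose (0.54), whereas in LPS with octanal only Egr2 (-2.38) and Egr3 (-2.81) fell against untreated cells. Of 7 tested ERK output genes, Phlda1 rose in LPS (0.76) and in LPS with octanal (1.39) against untreated cells, and Ier3 rose in LPS with octanal (1.25, adjusted p = 0.00643). Among 6 Sprouty and Spred genes, which restrain ERK upstream, Spry2 fell in LPS against untreated cells (-2.05, adjusted p = 0.0311) and none passed in LPS with octanal. In LPS with octanal against LPS, 0 genes of any of these lists passed edgeR's test.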

How the data were processed

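Messenger RNA libraries of 9 samples were analysed in 3 groups of 3, as the labels give them. The deposited table holds whole-number read counts and FPKM values (fragments scaled by gene length and library size) per gene and library, made by the authors. Per the submitters' processing notes, the genome build is GRCm38. Which aligner and counter were used, and whether strand was used, is not given in the sources used here. Of 26770 rows, 4735 are unannotated loci; 10 text lines without values were left out, and 0 sample columns were unused.

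Counts were tested with edgeR 4.0.16 (R 4.3.3): TMM scaling, filterByExpr, quasi-likelihood F test over all 9 libraries, and Benjamini-Hochberg adjustment over 15447 genes, called at an adjusted p under 0.05. The code was tested on simulated data. Intervals are 95% model intervals. Replicates of a group differed by 42.9 to 142 times the counting error, as chi-square per degree of freedom, so no pair looked like repeats of 1 library. Alternatives were DESeq2 1.42.0, limma 3.58.1 (voom, and log2 of FPKM plus 0.1 or 1), other scalings and filters, the 2 groups alone, a replicate block and leaving out each library.

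The members and lists were chosen with earlier results of these data known. Named are all members, from each pathway list up to 4 genes of lowest p, mainly those that passed, and any gene that a count of 5 or fewer refers to, and the 3 genes of highest r per member, with a mean of at least 10 CPM. Correlations used log2 CPM with a prior count of 2. Annotation was GENCODE M21. Protein sequences were not used here.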

Additional observations from a re-analysis of the deposited data

How the results depend on the processing

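Each member value was recomputed under 19 alternatives. Of 456 such values, 400 kept direction and side of the threshold, 26 newly passed, 17 no longer passed and 13 changed sign, the causes of which were not tested. In LPS against untreated, 3 members and 5072 genes were called; 5 members were called by DESeq2 (6212 genes), by voom (5334) and at FPKM plus 0.1 (5530) or plus 1 (5578), 4 without unannotated loci (4709), 3 at a filter of 10 CPM (4017), and 2 with DESeq2 size factors (4971), without a filter (4466) and with the 2 groups alone (3916). In LPS with octanal against untreated, 2 were called at a filter of 10 CPM, by voom and without unannotated loci, and 3 by DESeq2, against 1; all genes called were 2810 by DESeq2 and 404 with the 2 groups alone, against 1339. In LPS with octanal against LPS, 1 member (Dusp4) was called in each of 5 alternatives, in which all genes called were 279 (no filter), 323 (10 CPM), 1792 (DESeq2), 1380 (2 groups alone) and 118 (no unannotated loci), against 0. Leaving out 1 library gave 2387 to 5658, 298 to 2137 and 0 to 584 genes in the 3 comparisons, and 1 to 3, 0 to 2 and 0 to 1 members. The Dusp4 call for LPS held under all 19 alternatives (-1.47 to -1.13). With the replicate block, 4257, 923 and 0 genes and 3, 1 and 0 members passed. In LPS against untreated, Dusp10 was lost (adjusted p = 0.0551) and Dusp2 gained (0.0260). The labels do not say whether the numbers pair the libraries. Deviations of same-numbered libraries correlated at -0.08 to 0.16 and of others at -0.14 to 0.20, which cannot settle it with 3 libraries a group. The Dusp16 call for LPS was also lost with DESeq2 size factors (adjusted p = 0.0536), without a filter (0.0739) and with the 2 groups alone (0.0880). Signs changed for Dusp5 in LPS with octanal against LPS (-0.067 and -0.066 on the FPKM scales, -0.035 to 0.13 over left-out libraries), Dusp7 (0.0002 at FPKM plus 1, -0.23 to 0.13) and Dusp1 (-0.28 to 0.0499) in LPS with octanal against untreated, Dusp1 in LPS against untreated (-0.0027 to 0.33) and Dusp6 in LPS with octanal against LPS (-0.28 to 0.0598). The members' depth was ample, and 3 libraries a group limit the precision.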

Other observations

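Regulators and targets next to the phosphatase pathway gave further values. Zfp36, the mRNA decay factor that MAPKAP kinase 2 inactivates, averaged 216 ± 24.6 CPM in LPS with octanal, 211 ± 17.4 CPM in LPS and 157 ± 22.7 CPM in untreated libraries; it rose in LPS against untreated cells (log2 fold change 0.42, adjusted p = 0.0407), as did Zfp36l1 (0.80), and did not pass in LPS with octanal against untreated cells (0.46, adjusted p = 0.0672). Glucocorticoid targets, a group to which Dusp1 also belongs, did not move one way. Of 5 tested, Tsc22d3 rose (0.89, adjusted p = 0.0332) and Sgk1 (-1.10, adjusted p = 0.000882) and Fkbp5 (-0.65, adjusted p = 0.0401) fell in LPS against untreated cells, and Sgk1 fell in LPS with octanal against untreated cells (-0.49, adjusted p = 0.0357).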
